A study of Homo sapiens with 8 samples.

Results

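The genes described here encode the machinery of DNA replication and the regulators that carry a cell from G1 into S phase. They are 32 genes chosen by name, and all 32 were found among the 58735 genes of the deposited gene table, 1 entry each. Their mRNA was measured in Caco-2 cells, a human colorectal carcinoma line labelled wild type, in 3 libraries of cells treated with M2-exo and 3 libraries of untreated cells, which received PBS. M2-exo are exosomes, small vesicles, from THP-1 cells, a human monocytic leukaemia line; M2 is the usual name for alternatively activated macrophages. Exosomes were also profiled themselves, in 1 M2-exo and 1 M0-exo library from THP-1 cells, M0 being the usual name for unpolarised macrophages. All Caco-2 cells were grown with 18% fetal bovine serum and THP-1 cells with 10%, while exosome dose and treatment time are not stated. Nothing says whether the libraries came from separate cultures, so each p-value reflects only the scatter among these libraries, which may be technical. The labels list the cell type of every sample, THP-1 and Caco-2 alike, as stem cells. In bulk libraries, a difference in the number of dividing cells and a difference in mRNA per cell cannot be told apart. Cells treated with M0-exo are not analysed here, so an effect of M2-exo and one of exosomes in general cannot be told apart either.

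DNA is replicated once per cycle because loading and firing of the replicative helicase are kept apart in time. In G1, CDC6 and CDT1 load the ring of MCM2 to MCM7 onto origins. At the entry to S phase, cyclin-dependent kinases let CDC45 and the GINS complex join that ring, and polymerases, the sliding clamp and nucleotide synthesis follow. Cyclin D and cyclin E kinases inactivate the retinoblastoma protein, which frees E2F factors to transcribe many of these same genes. In the gut these genes mark the dividing cells of the crypt, and a carcinoma line such as Caco-2 expresses them while it grows.

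The promoters are shown first because E2F factors are known to act there. A RefSeq promoter on GRCh38.p14, covering 250 bases before and 50 bases after a start, was found for 28 of the 32 members; CCND1, CCNE2, MCM4 and MCM5 had no entry. The E2F motif was searched as TTTCCCGC, TTTCGCGC, TTTGCCGC and TTTGGCGC on both strands. At least 1 start of 20 of these 28 members, or 71.4%, held such a match, against 6.52% of the 10390 tested genes with a promoter entry. Counted by start, 21 of the 40 member starts held a match, or 52.5%, against 3.31% of the 35116 starts of any gene. Of 20 mitosis genes with a promoter entry, 3 held a match, or 15%. The shorter motif CCAAT, searched on both strands, was in 18 of the 28 members (64.3%), in 18 of the 20 mitosis genes (90%) and in 42.8% of tested genes. The 8 members without an E2F match in these windows were MCM10, CDC45, RFC4, FEN1, RRM1, RRM2, CCNE1 and SLBP. A match is a run of letters and not a measured binding site, and matches of 2 E2F forms can overlap.

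The 160 bases before the start are shown for 5 members that the results below return to, with the E2F matches in capitals. The start is that of RefSeq: 19 bases of the E2F1 window and 4 of the PCNA window lie inside the gene as the gene table places it. E2F1, the factor itself, lies on chr20:33686386-33686545, minus strand, and holds 2 separate matches.
E2F1: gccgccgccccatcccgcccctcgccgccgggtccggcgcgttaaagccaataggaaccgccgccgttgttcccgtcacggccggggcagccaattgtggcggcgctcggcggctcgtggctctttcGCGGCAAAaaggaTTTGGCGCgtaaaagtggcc
MCM6, a helicase subunit, lies on chr2:135876444-135876603, minus strand, where 4 matches lie in 2 runs, each holding a pair that overlaps on opposite strands.
MCM6: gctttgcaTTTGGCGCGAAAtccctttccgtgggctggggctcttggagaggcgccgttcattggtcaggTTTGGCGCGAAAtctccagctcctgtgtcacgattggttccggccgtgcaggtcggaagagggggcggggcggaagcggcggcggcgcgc
PCNA, the sliding clamp, lies on chr20:5126623-5126782, minus strand, with 1 match.
PCNA: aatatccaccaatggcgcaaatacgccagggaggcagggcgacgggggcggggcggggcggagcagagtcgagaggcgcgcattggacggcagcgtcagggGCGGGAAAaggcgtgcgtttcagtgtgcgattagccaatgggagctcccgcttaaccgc
POLA1, the catalytic subunit of the primase polymerase, lies on chrX:24693758-24693917, plus strand, with 1 match.
POLA1: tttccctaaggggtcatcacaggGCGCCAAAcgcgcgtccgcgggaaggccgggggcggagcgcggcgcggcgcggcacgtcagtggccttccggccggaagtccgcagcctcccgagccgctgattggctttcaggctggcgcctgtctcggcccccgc
RRM1, the large subunit of ribonucleotide reductase, lies on chr11:4094525-4094684, plus strand, and has no match in this window.
RRM1: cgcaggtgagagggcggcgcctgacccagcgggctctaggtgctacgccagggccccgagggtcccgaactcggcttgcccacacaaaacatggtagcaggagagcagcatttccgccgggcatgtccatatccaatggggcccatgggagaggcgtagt

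The libraries were of similar depth, with 17408745 to 18184325 counts in treated cells and 15608937 to 18324599 in untreated cells. Untreated 1 and untreated 3 lay at the ends of the first principal component, which held 50.1% of the variance, with scores of -56.0 and 43.2. The other 4 libraries scored between -13.4 and 23.8. Mitochondrially encoded genes took 4.16% of counts in untreated 1, against 7.01% to 8.11% in the other 5 libraries. Of 10 colon epithelial markers, 8 had a mean of at least 10 counts, led by KRT8 and KRT18, while KRT20 and LGALS4 had at most 7 counts in any library. Macrophage markers, for carry-over from the exosome source, summed to 11.8 to 17.9 CPM in treated and 13.9 to 20.0 CPM in untreated libraries. For these marker sums, CPM are counts relative to the total counts of the library. For single genes below, CPM are TMM-scaled counts relative to library size. Of these 12 markers 8 had a mean under 10 counts. PTPRC had at most 1 count, and CD68 and TYROBP had 0. CD14 (94 to 158 counts), CSF1R (42 to 98), LYZ (27 to 84) and FCER1G (12 to 24) were counted in every library, treated and untreated. Fibroblast markers summed to 69.5 to 96.5 CPM in treated and 70.2 to 82.6 in untreated libraries.

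All 32 members were expressed. Levels between genes are given as FPKM, counts scaled to gene length and library size, as deposited by the authors. PCNA stood highest, at 197 ± 9.75 FPKM in treated and 207 ± 32.8 FPKM in untreated cells (SD, n = 3 each, as for every mean below), above 99.1% of the 15084 tested genes. CCNE2, the minor E-type cyclin, stood lowest, at 1.26 ± 0.118 FPKM in treated and 1.28 ± 0.245 FPKM in untreated cells. Between these ends the next places were held by MCM3, CCND1 and MCM7, which averaged 84.6, 82.6 and 81.7 FPKM over the 6 libraries and did not differ from each other beyond their spread. Then came SLBP, MCM6, RRM1 and FEN1, at 65.8, 65.0, 63.5 and 61.8 FPKM, whose values also overlapped. The lowest members after CCNE2 were E2F2 at 3.89, POLA1 at 4.59 and GINS3 at 5.21 FPKM. The gene length behind FPKM is that of the deposited table, for example 16609 bases for POLE and 7338 for MCM5, and a long annotated gene lowers its FPKM.

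**Figure D1:**
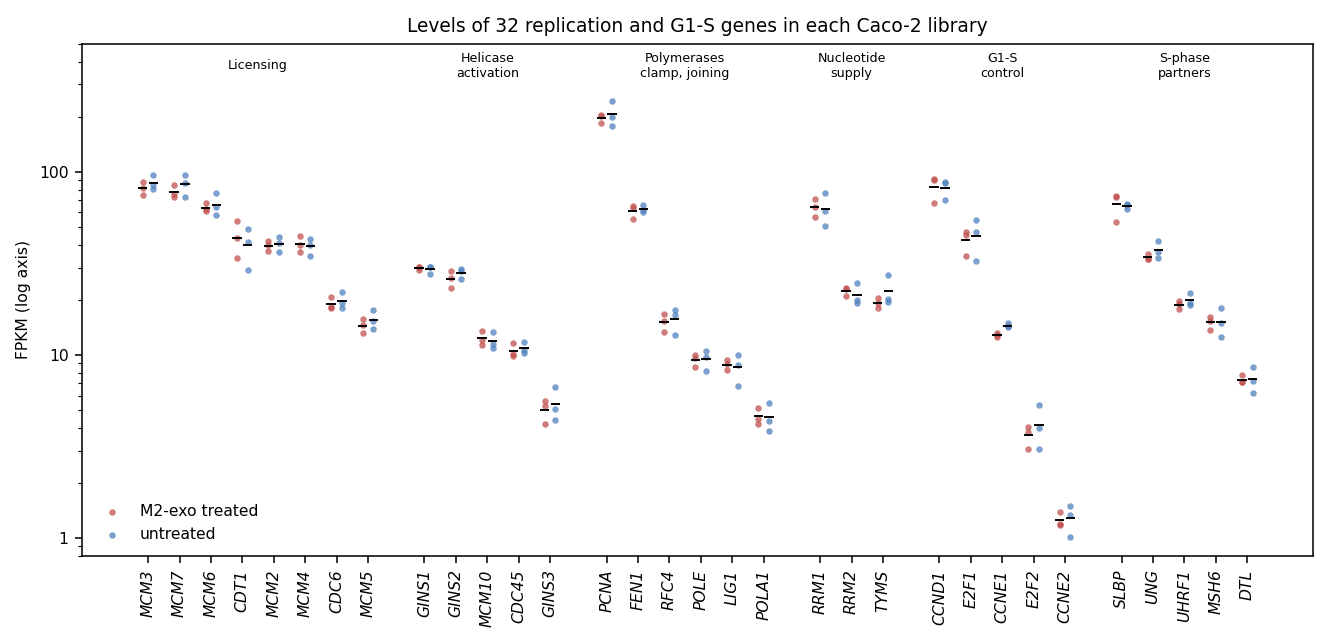
FPKM (log axis) of the 32 members in each Caco-2 library, grouped by role; points are libraries, M2-exo treated left of untreated, and bars are means of 3. PCNA stands highest at about 200 and CCNE2 lowest near 1.3, and for CCNE1 alone the points of the groups do not overlap.

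Partners of the same complex were not equally abundant as mRNA. The MCM2 to MCM7 proteins form a ring with 1 copy of each, and their mRNA levels ran from 15.04 FPKM for MCM5 to 84.6 FPKM for MCM3. The ratio of MCM7 to MCM5 was 5.38 ± 0.196 in treated and 5.48 ± 0.202 in untreated cells. The ratio of MCM3 to MCM5 was 5.66 ± 0.530 in treated and 5.70 ± 1.19 in untreated cells and varied more, from 4.58 to 6.94 over the 6 libraries. Of the GINS subunits, GINS1 was 6.03 ± 0.990 times GINS3 in treated and 5.62 ± 1.15 times GINS3 in untreated cells. Ribonucleotide reductase, which makes deoxynucleotides, had 2.87 ± 0.212 times as much RRM1 as RRM2 in treated and 2.93 ± 0.252 times in untreated cells. Of the activator E2F genes, E2F1 exceeded E2F2 by 11.6 ± 0.656 times in treated and 10.8 ± 0.750 times in untreated cells. CCNE1 exceeded CCNE2 by 10.3 ± 1.14 times in treated and 11.6 ± 2.25 times in untreated cells. All these ratios are of FPKM values and depend on the annotated lengths.

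The comparison the design implies is whether M2-exo changed the recipient cells. None of the 32 members passed the test across all genes (edgeR quasi-likelihood test, Benjamini-Hochberg adjustment over 15084 genes), and the smallest adjusted p of a member was 0.9999. The same test called 0% of all tested genes in either direction. None of the members had an unadjusted p under 0.05, where 0.736% of tested genes did (111 genes). limma-voom on the same genes also called 0, with 104 at an unadjusted p under 0.05, and DESeq2, run on 29414 genes without that filter, called 0, with 124. Their log2 fold changes, M2-exo treated over untreated, ran from -0.22 for TYMS to 0.13 for CDT1. The median over members was -0.047, beside -0.0099 over all tested genes. Of the members, 22 lay below 0, or 68.8%, beside 52.9% of tested genes. This balance depended on single libraries, most on untreated 1: without that library 15 of 32 lay below 0 and the median was 0.016. Without treated 1, treated 3 or untreated 3 it was 19 of 32 each time. Without treated 2 it was 25, and without untreated 2 it was 23.

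The intervals bound what these libraries could have missed. The 95% interval of the log2 fold change reached 0.34 to each side for the median member, beside 0.51 for the median tested gene. It lay within a 2-fold change in either direction for all 32 members, as for 75.8% of tested genes. It lay within a 1.5-fold change for 29 members, as for 45.2% of tested genes. The exceptions were TYMS (-0.61 to 0.18), E2F2 (-0.71 to 0.33) and CDT1 (-0.38 to 0.64). These intervals are not adjusted for the number of genes. Nor is the comparison with all tested genes matched for level. By FPKM, all members but CCNE2 and E2F2 stood above at least 50.2% of tested genes.

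**Figure D2:**
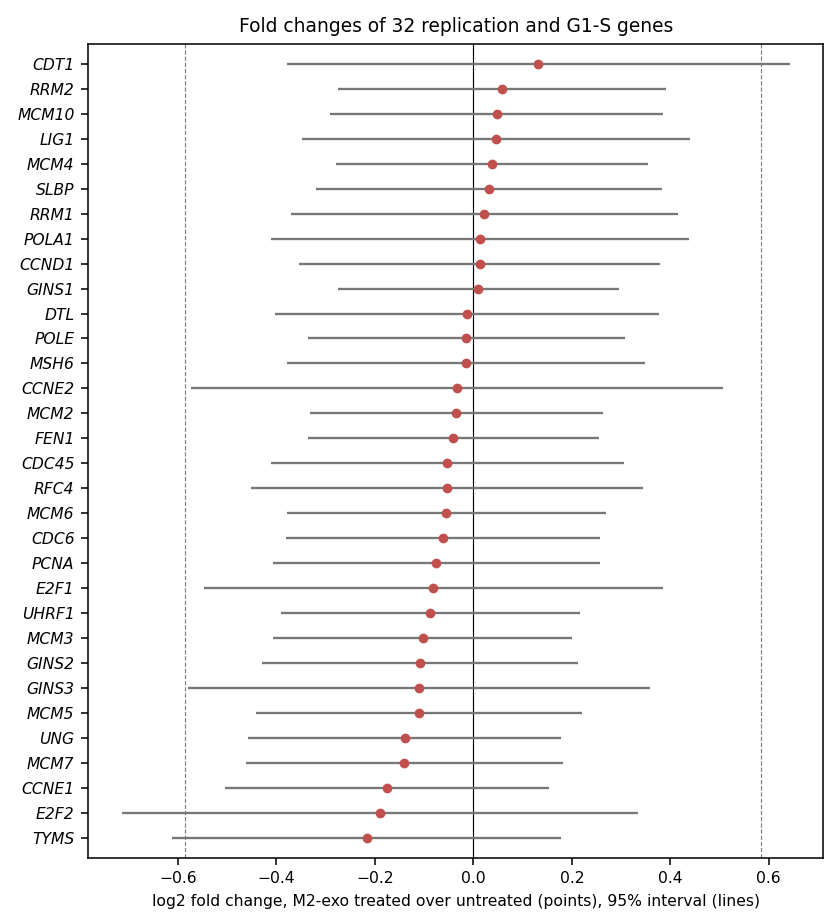
Log2 fold change of each member, M2-exo treated over untreated (points), with its 95% interval (lines); dashed lines mark 1.5-fold. Every interval includes 0, and 3 of them, for TYMS, E2F2 and CDT1, cross a dashed line.

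Among the licensing genes 2 of 8 lay above 0 and 6 below, with a median of -0.058, and none passed. MCM3, the most abundant of them, had 301, 323 and 277 CPM in treated 1 to 3, against 358, 312 and 297 CPM in untreated 1 to 3. CPM suit a comparison of 1 gene between libraries, not of levels between genes. The MCM3 values overlapped, and the log2 fold change was -0.10 (SE 0.13; edgeR adjusted p = 0.9999). MCM7, whose gene also holds the miR-106b, miR-93 and miR-25 hairpins, had 325, 372 and 335 CPM in treated cells, against 326, 381 and 429 CPM in untreated cells (log2 -0.14, SE 0.14). Untreated 3 stood highest, and untreated 2 also lay above all treated values. MCM5 had 97.2, 116 and 108 CPM in treated cells, against 104, 113 and 130 CPM in untreated cells (log2 -0.11, SE 0.15). CDT1, which brings the ring to origins and is destroyed in S phase, varied most of all members. It had 114, 145 and 182 CPM in treated cells, against 98.2, 139 and 166 CPM in untreated cells. Both groups thus spanned nearly the same range, and its log2 fold change of 0.13 had an SE of 0.23. Its partner CDC6 had 107 ± 7.57 CPM in treated and 111 ± 11.96 CPM in untreated cells. The remaining subunits MCM2, MCM4 and MCM6 had log2 fold changes of -0.035, 0.037 and -0.055.

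Of the 5 genes of helicase activation, 3 lay below 0 and 2 above, and none passed. GINS1, a subunit of the GINS complex, was the steadiest of all members. It had 124, 119 and 124 CPM in treated cells, against 126, 114 and 125 CPM in untreated cells, a log2 fold change of 0.0098 with an interval from -0.28 to 0.30. GINS2 had 86.9, 93.9 and 77.0 CPM in treated cells, against 97.8, 94.2 and 85.9 CPM in untreated cells (log2 -0.11, SE 0.14). Its values overlapped, with treated 3 lowest. GINS3 had 25.8 ± 3.76 CPM in treated and 27.8 ± 6.11 CPM in untreated cells. CDC45, which completes the active helicase, and MCM10, which helps it to start, had log2 fold changes of -0.053 and 0.047.

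The 6 genes of the polymerases, the clamp and strand joining had log2 fold changes between -0.075 and 0.046, and none passed. PCNA had 276, 299.99 and 299.7 CPM in treated cells, against 363, 294 and 266 CPM in untreated cells. Untreated 1 was the highest and untreated 3 the lowest of the 6, with the treated libraries between them (log2 -0.075, SE 0.15). The clamp loader subunit RFC4, the polymerase subunits POLA1 and POLE, the flap nuclease FEN1 and the ligase LIG1 had log2 fold changes of -0.053, 0.014, -0.014, -0.041 and 0.046.

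In nucleotide supply, TYMS had the lowest fold change of all members, and none of the 3 genes passed. TYMS, thymidylate synthase, had 51.1, 47.6 and 45.2 CPM in treated cells, against 68.7, 50.1 and 48.6 CPM in untreated cells. The difference came mostly from untreated 1: the other 2 untreated values lay within the treated range, and the log2 fold change was -0.22 (SE 0.18; edgeR adjusted p = 0.9999). Without untreated 1 it was -0.033. RRM1 had 300.1, 269 and 240.3 CPM in treated cells, against 326, 256 and 215 CPM in untreated cells (log2 0.022, SE 0.17). RRM2, the subunit that limits the enzyme in S phase, had 120 ± 5.95 CPM in treated and 115 ± 16.5 CPM in untreated cells (log2 0.058, SE 0.15).

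Among the regulators of the G1 to S step, CCNE1 was the 1 member whose groups did not overlap. CCNE1, the main E-type cyclin here, had 32.3, 32.7 and 34.2 CPM in treated cells, against 38.6, 36.7 and 36.7 CPM in untreated cells. All 3 treated values lay below all 3 untreated values, as in 2.3% of tested genes; 0 members had all treated values above, as 1.65% of tested genes did. Non-overlap was easier to reach with 1 library left out: 3 members then lay wholly below without untreated 1 (8.22% of tested genes), and 2 without treated 1 (5.79%), treated 2 (4.85%) or untreated 3 (6.84%). Wholly above lay 2 members without treated 1 (5.04% of tested genes) and 1 without untreated 1 (9.86%). The log2 fold change was -0.18 (SE 0.15), and CCNE1 did not pass (edgeR adjusted p = 0.9999). It stayed between -0.18 and -0.14 under every alternative tried, none of which called it. CCNE2 had 6.19, 5.22 and 5.29 CPM in treated cells, against 6.67, 4.48 and 5.96 CPM in untreated cells (log2 -0.033, SE 0.24), and its values overlapped.

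CCND1, the cyclin that answers to growth factors and to beta-catenin, had 331, 440.02 and 441 CPM in treated cells, against 427, 341 and 433 CPM in untreated cells. A low library stood in each group, treated 1 and untreated 2, and the log2 fold change was 0.013 (SE 0.16). E2F1 had 87.6, 113 and 119 CPM in treated cells, against 82.9, 117 and 138 CPM in untreated cells (log2 -0.081, SE 0.21). E2F2 had 16.8, 22.2 and 21.0 CPM in treated cells, against 16.96, 21.9 and 29.5 CPM in untreated cells (log2 -0.19, SE 0.23). For both E2F genes, library 1 was the lowest of its group.

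The remaining 5 members were grouped as S-phase partners, and none passed. SLBP, which binds histone mRNA, had 109, 150.4 and 148 CPM in treated cells, against 129, 135 and 135 CPM in untreated cells (log2 0.032, SE 0.16). It was more variable in treated cells, with treated 1 lowest of the 6 libraries. UNG, which removes uracil from DNA, had 86.3, 86.2 and 91.9 CPM in treated cells, against 88.0, 93.9 and 109 CPM in untreated cells (log2 -0.14, SE 0.14). UHRF1, which carries DNA methylation over to new strands, the mismatch repair gene MSH6 and DTL, which directs CDT1 to destruction, had log2 fold changes of -0.088, -0.015 and -0.012.

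The sources do not state whether counting used strand. The spans of 12 members, introns included, overlap that of another gene with a mean of at least 10 counts. Whether any reads were shared or misassigned was not tested. TYMS overlaps ENOSF1 on the opposite strand, which had a mean count of 1168 beside 898 for TYMS. CCNE2, with a mean of 97.8 counts, overlaps INTS8 with 749.5, GINS2 overlaps GSE1, and RFC4 overlaps EIF4A2. On the same strand, FEN1 (mean 2690.5 counts) overlaps FADS2 with 419.5, and RRM2 (2034.67) overlaps AC007240.1 with 11.8. CCNE1, E2F1, E2F2, CDT1 and PCNA had no such neighbour. On GRCh38, as the gene table places them, CCNE1 (ENSG00000105173) lies at chr19:29811898-29824308, CDT1 (ENSG00000167513) at chr16:88803213-88809258 and TYMS (ENSG00000176890) at chr18:657604-673578. CCND1 (ENSG00000110092) lies at chr11:69641087-69654474 and PCNA (ENSG00000132646) at chr20:5114953-5126626.

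Other genes of the same pathways gave no call either. None passed of 12 other licensing genes, 25 other replisome genes, 27 other G1-S regulators and 14 other genes of nucleotide supply and chromatin assembly, and none of these had an unadjusted p under 0.05. Their median log2 fold changes were -0.026, 0.015, -0.015 and -0.048. At the ends of the licensing list stood MCM9 (0.17) and ORC3 (0.055) above, with ORC6 (-0.19) and the kinase gene CDC7 (-0.11) below. In the replisome list POLA2, the partner of POLA1, stood highest at 9.58 ± 1.03 CPM in treated and 7.65 ± 1.13 CPM in untreated cells (log2 0.32, SE 0.21), followed by the helicase gene RECQL4 (0.22). RPA3 (-0.13) and POLE4 (-0.12) stood lowest.

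In the list of G1-S regulators the lowest values belonged to kinase inhibitors of low level. CDKN2D had 1.77 ± 0.586 CPM in treated and 2.38 ± 0.697 CPM in untreated cells (log2 -0.43, SE 0.37), and CDKN2C a log2 fold change of -0.34 (SE 0.38). CDK6, the kinase partner of cyclin D, had 315 ± 13.4 CPM in treated and 288 ± 73.4 CPM in untreated cells (log2 0.13), and RB1, the retinoblastoma gene, also 0.13. CDKN1A, the p53-driven inhibitor, had only 1.96 ± 0.395 CPM in treated and 2.17 ± 0.287 CPM in untreated cells. In the list of nucleotide supply and chromatin assembly, RRM2B had a log2 fold change of 0.059, and TK1 (-0.14) and DTYMK (-0.10) stood lowest.

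Of 10 replication histone genes 6 had enough counts to test, with 5 below 0 and none past the test. HIST1H2BD had 5.48 ± 0.482 CPM in treated and 7.25 ± 0.694 CPM in untreated cells (log2 -0.40, SE 0.21), and HIST1H1C had -0.31, while HIST1H2BC (0.38) and HIST1H2BK (-0.14) were the highest. Histone mRNAs mostly lack a poly(A) tail, and the sources do not state how RNA was selected. Of 24 mitosis genes, which act after replication, 18 lay above 0 and 6 below with a median of 0.024, and none passed. CENPE (0.22) and NUSAP1 (0.16) stood highest and AURKB (-0.18) and CENPA (-0.16) lowest.

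For the median member, the difference between the groups was smaller than the scatter within them. The median size of a member's log2 fold change was 0.054, beside 0.099 for all tested genes, for which it was likewise below the scatter. The median SD of a member's log2 CPM was 0.12 over the treated and 0.20 over the untreated libraries, beside 0.19 and 0.30 for all tested genes. This comparison is not matched for level either. Of the members, 26 were more variable in untreated than in treated cells, or 81.2%, beside 72% of tested genes. Relative to each gene's own mean over 6 libraries, the median member stood at -0.075, 0.059 and -0.041 in treated 1 to 3 and at 0.14, -0.0089 and -0.019 in untreated 1 to 3. Untreated 1 was therefore the library with the highest median, and it also had the lowest mitochondrial share. Whether these are linked was not tested. As a share of counts from other than mitochondrially encoded genes, the 32 members took 0.456% to 0.486% in treated and 0.461% to 0.487% in untreated libraries. Untreated 1 held the highest of these shares, at 0.487%, beside 0.486% in treated 2. The median mitosis gene stood at 0.15 in untreated 1 and at -0.20 in untreated 3, while the members' median in untreated 3 was near 0.

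**Figure D3:**
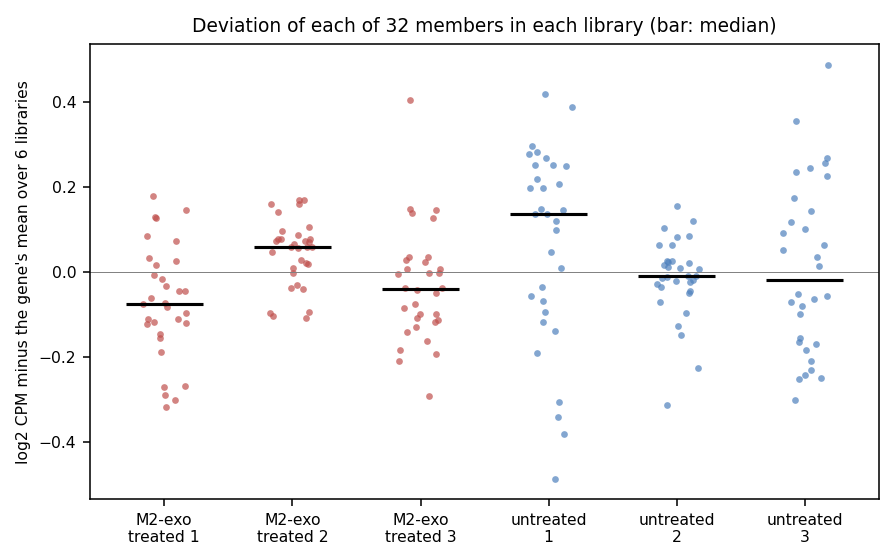
Log2 CPM of each member minus its own mean over the 6 libraries; points are members, bars their median. The median is highest in untreated 1, at 0.14, and the points spread most widely in untreated 1 and untreated 3.

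That near-zero median in untreated 3 hid members on both sides. Between untreated 3 and untreated 1, 13 members were higher and 19 lower in untreated 3. Differences over 0.4 in log2 CPM were found for E2F2 (0.79), CDT1 (0.75), E2F1 (0.74) and LIG1 (0.57), which were higher in untreated 3. Those under -0.4 were found for 9 members. RRM1 and GINS3 led them at -0.60 each, followed by POLA1 and MSH6 at -0.52 each, TYMS at -0.50, DTL at -0.48, RFC4 at -0.47, PCNA at -0.45 and MCM6 at -0.41. The SD of this difference over the members was 0.42, beside 0.81 over all tested genes.

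The treated libraries, which that ordering did not use, showed the same sides. Between treated 3 and treated 1 the difference had the same sign for 29 of 32 members, or 90.6%, beside 68.6% of tested genes. The exceptions were PCNA, CCNE1 and MCM10. Here too the members and all tested genes are not matched for level. Some shared signs were of differences near 0, as for GINS1 (-0.011 between the untreated and -0.0009 between the treated libraries). CDT1 stood at 0.67, E2F1 at 0.44, E2F2 at 0.31 and LIG1 at 0.19, against GINS3 at -0.42, RRM1 at -0.32 and RFC4 at -0.32. CCND1 and SLBP differed between the groups in this respect, at 0.42 and 0.44 between the treated libraries and 0.019 and 0.071 between the untreated ones; this was not tested. The library scores on the first principal component run the same way, and their part in these differences was not tested. Promoters of E2F2, CDT1, E2F1 and LIG1, the members over 0.4 between the untreated libraries, all hold an E2F match. Of those under -0.4, GINS3, POLA1, MSH6, TYMS, DTL, PCNA and MCM6 hold a match, and RRM1 and RFC4 have none in their windows. Among all members with a promoter entry, 71.4% hold a match. Whether matches go with these differences was not tested. The GC content of the promoter window had a Pearson correlation of 0.28 (Spearman 0.29) with the difference between untreated 3 and untreated 1 across the 28 members with an entry. Over 10393 tested gene entries it was 0.19 for each measure. With the difference between treated 3 and treated 1 it was 0.37 (Spearman 0.29) across the members and 0.18 (Spearman 0.17) over tested entries. Genes are not independent replicates, and the correlations are a description.

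**Figure D4:**
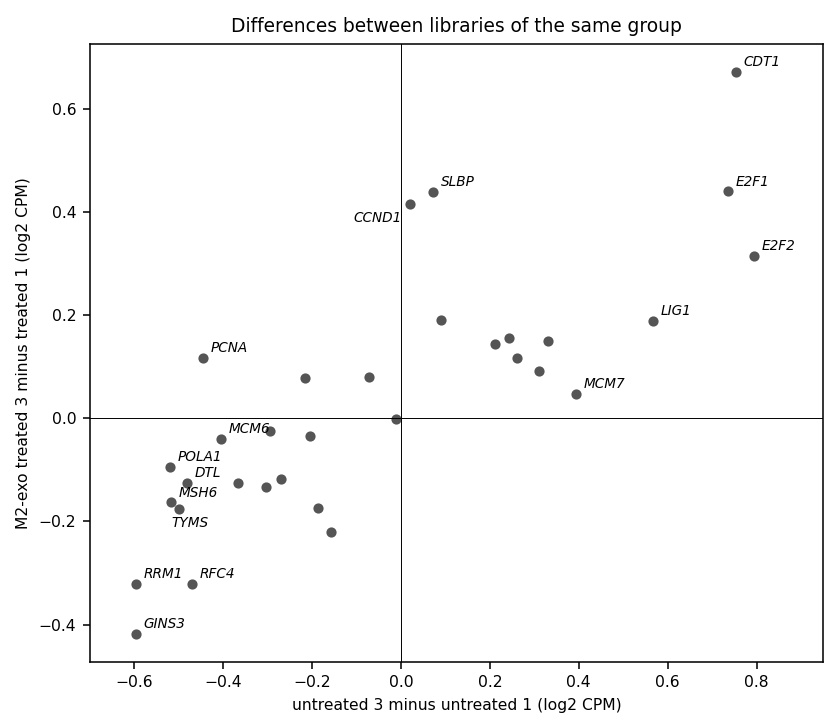
Difference in log2 CPM between untreated 3 and untreated 1 (horizontal) and between M2-exo treated 3 and treated 1 (vertical); points are the 32 members. CDT1, E2F1, E2F2 and LIG1 lie at the upper right and RRM1, GINS3 and RFC4 at the lower left, and 29 of 32 have the same sign on both axes.

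In the exosomes, with 1 M2-exo and 1 M0-exo library, no test was possible. Several miRNAs known to repress members were counted there; the seed, bases 2 to 8, is in capitals. The let-7 family, known to repress CCND1, shares 1 seed and is shown by its most abundant forms.
let-7f-5p: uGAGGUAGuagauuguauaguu
let-7a-5p: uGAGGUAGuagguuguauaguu
let-7i-5p: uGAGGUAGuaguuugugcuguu
The miR-26 family, known to repress CCNE2, shares another seed.
miR-26a-5p: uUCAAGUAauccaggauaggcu
miR-26b-5p: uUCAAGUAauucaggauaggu
The 9 let-7 forms held 1621 of 9929 counts in M2-exo and 2217 of 13584 in M0-exo, which is 16.3% of each. The miR-26 pair held 195 counts in M2-exo and 154 in M0-exo, or 1.96% (exact 95% interval 1.70 to 2.26) and 1.13% (0.963 to 1.33), intervals that cover counting error only. By contrast, the 2 forms of miR-15/16 found in the table, of 4 looked for and known to repress CCND1 and CCNE1, held 10 counts in M2-exo and 11 in M0-exo. The 4 forms of miR-17, known to repress E2F1 and CCND1, held 12 counts in M2-exo and 30 in M0-exo. miR-24-3p, known to repress E2F2, held 16 counts in M2-exo and 39 in M0-exo. miR-34a-5p, known to repress CCND1 and CCNE2, held 1 count in M2-exo and 0 in M0-exo, where the exact 95% interval reaches 0.0272%. miR-193b-3p, known to repress CCND1, was looked for and not found. In the recipient cells CCND1 and CCNE2, the members named for the 2 most abundant families, had the log2 fold changes of 0.013 and -0.033 given above. Those values compare cells given M2-exo with cells given PBS, not with cells given M0-exo.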

How the data were processed

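Gene counts deposited by the authors for 3 M2-exo treated and 3 untreated Caco-2 libraries were used as whole-number counts per gene. A matching table deposited by the authors gave FPKM, used for levels between genes. Exosome miRNA counts were deposited by the authors for 1 M2-exo and 1 M0-exo library; the TPM values deposited by the authors beside them were not used. Per the submitters' processing notes, CASAVA, HISAT2, featureCounts, Bowtie and GRCh38 were used; no version is stated. Another 6 per-sample columns, named for Caco-2 cells treated with M0-exo, could be tied to no labelled sample and were left out.

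Samples were grouped by their titles. Counts were filtered by filterByExpr, which left 15084 genes including all 32 members, scaled by TMM and tested with the 2-sided edgeR 4.0.16 quasi-likelihood test in R 4.3.3. P-values were adjusted by Benjamini-Hochberg over all tested genes, at a threshold of 0.05. SE is the absolute log2 fold change over the square root of F, and log2 CPM used a prior count of 2. Alternatives were DESeq2 1.42.0, limma-voom and limma 3.58.1 on log2(FPKM + 1) and log2(FPKM + 0.1), RLE factors, total counts, other filters, a replicate block and each library left out. Intervals of shares are exact (scipy 1.17.1).

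The members and lists were chosen with earlier results of these data known. Values per library are given for the most abundant member of each role, the 8 of smallest unadjusted p, any without overlap, the most and least variable, and the E-type cyclins and E2F genes; the text adds a few. From each pathway list the 2 highest and 2 lowest were named, except 1 gene that is not reported here. Seed matches in target mRNAs were not analysed here.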

Additional observations from a re-analysis of the deposited data

How the results depend on the processing

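No member and no pathway gene was called by any of the 15 alternatives: the smallest adjusted p of a member over them was 0.957, without untreated 1. Over all genes, 6 were called with no filter on low counts, and 0 to 1 when 1 library was left out; the 1 call came without treated 2. Of 480 values of a member under an alternative, 56 had another sign than the main value, and 9 members kept 1 direction throughout, though most of them moved in size when 1 library was left out. The cause was not tested. Small sign changes came with no filter for POLE (0.0011), MSH6 (0.0030) and DTL (0.0047), with a mean CPM of at least 1 for MSH6 (0.0033) and DTL (0.0053), with log2(FPKM + 1) for MSH6 (0.00066) and DTL (0.0019), with log2(FPKM + 0.1) for MSH6 (0.0014) and DTL (0.0034), and with limma-voom for DTL (0.0030).

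With 1 library left out the median of the members ranged from -0.076 to 0.016. The log2 fold change then ranged for CDC6 from -0.12 to 0.035, CDT1 from -0.041 to 0.32, MCM2 from -0.091 to 0.045, MCM4 from -0.036 to 0.12, MCM6 from -0.12 to 0.074 and MCM10 from -0.023 to 0.14. Ranges were -0.12 to 0.017 for CDC45, -0.016 to 0.045 for GINS1, -0.21 to 0.084 for GINS3, -0.15 to 0.067 for PCNA, -0.16 to 0.053 for RFC4, -0.078 to 0.18 for POLA1, -0.099 to 0.082 for POLE, -0.080 to 0.044 for FEN1 and -0.087 to 0.19 for LIG1. They were -0.091 to 0.20 for RRM1, -0.070 to 0.16 for CCND1, -0.16 to 0.10 for CCNE2, -0.25 to 0.10 for E2F1, -0.35 to 0.051 for E2F2, -0.11 to 0.14 for MSH6, -0.046 to 0.19 for SLBP and -0.10 to 0.13 for DTL. The 9 that kept 1 direction ranged from -0.17 to -0.00045 for MCM5, -0.12 to -0.0048 for UHRF1, -0.16 to -0.013 for MCM3, -0.18 to -0.019 for GINS2, -0.23 to -0.028 for MCM7, -0.20 to -0.032 for UNG, -0.29 to -0.033 for TYMS, -0.18 to -0.14 for CCNE1 and 0.0075 to 0.19 for RRM2. MCM5, UHRF1, MCM7, UNG and RRM2 were nearest 0 without untreated 3, and MCM3 and TYMS without untreated 1.

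With the replicate number as a block, 0 members were called and the median of the members was -0.044. The numbers are not stated to pair the libraries: across genes, deviations of same-numbered libraries correlated at 0.28, -0.065 and 0.48. Those of differently numbered libraries correlated at -0.42 (treated 1 with untreated 3) to 0.18 (treated 1 with untreated 2). Deviations are from the group mean, so these values depend on each other and cannot show whether the numbers pair the libraries. With the block 211 genes had an unadjusted p under 0.05, and without it 111. With TMM factors the share ratio of M2-exo over M0-exo was 0.794 for let-7 and 1.38 for miR-26, beside 1.00 and 1.73 by total counts. CCNE2 had the fewest counts of the members, with a mean of 97.8, and each group has 3 libraries.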
